A study of Bos taurus with 8 samples.

Results

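The tumor necrosis factor (TNF) superfamily was examined in the transcriptome of bovine oocytes. Members were the genes whose symbol begins with TNFSF or TNFRSF and a number, together with TNF, LTA, LTB, CD40, CD40LG, CD27, CD70, NGFR, EDAR and FASLG. This rule uses symbols alone and found 37 genes of 26804 in the table, of which 17 were ligands and 20 were receptors. Denuded germinal vesicle oocytes were aspirated from the same dry, multiparous beef cows in summer (August) and in winter (January in the series text, February in the methods), and both sessions followed synchronisation with progesterone and stimulation with follicle-stimulating hormone. The summer group held 4 libraries (A, B, C and E) and the winter group 4 libraries (A, B, D and E), each from the pooled RNA of a pair of cows. The cows are called Angus in the series text and a Bos taurus crossbreed in the methods, and none of the sources read here gives their ages. Each season was sampled in a single session, so season, session and calendar order cannot be told apart. The paper reports a smaller share of top-grade cumulus-oocyte complexes in summer, and the lower grades were discarded. Its text gives no grades per pool, so grade cannot be separated from season either. The methods speak of winter replicates that correspond to summer ones, but name no letters, and the retained letters C and D have no partner.

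TNF superfamily ligands are mostly membrane proteins that act as trimers on neighbouring cells, or on distant cells once proteases release them. Their receptors either carry a death domain, through which caspase-8 can be switched on, or recruit TRAF adaptors that lead to NF-kB and stress kinases. Decoy receptors bind ligand without signaling. In the mammalian ovary the family is known for follicle atresia, luteal regression, ovulation and the traffic of immune cells.

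Values were TPM, in which the reads of a gene are divided by its length and scaled so that every library has the same total. TPM keeps no depth, so the counting error of single values is unknown. The libraries listed between 14477 and 16448 genes above 0. Expression in a season meant a zFPKM (a score for the distance of a gene from the main peak of log2 TPM) over -3 in each of its 4 libraries, and the 13379 genes that met this in at least 1 season were tested with limma on log2(TPM + 1). Calls required both an adjusted p below 0.05 and a difference of 2-fold or more. Unless another setting is named, every difference below is the summer mean less the winter mean of log2(TPM + 1), in which changes of low genes come out too small. Differences with the letter block, array weights, another pseudocount or another scaling are the estimates of those fits. 

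Transcripts of the labelled cell were plentiful in both groups, and those of other follicular cells were present too. The summed level of 13 oocyte markers lay between 12290 and 14294 TPM in summer and between 3668 and 9235 TPM in winter. Of these markers 11 of 13 were called higher in summer (median difference 1.15, limma), where 4.40% of all genes tested were called higher and 5.17% lower. The 12 cumulus and granulosa markers summed to between 6523 and 9684 TPM in summer and between 7658 and 33518 TPM in winter, where winter E was the highest, and 2 of 12 were called lower. The 11 theca and stroma markers summed to between 201 and 294 TPM in summer and between 441 and 2436 TPM in winter, and 9 of the 10 tested were called lower. The theca gene INSL3 was not among them, with means of 107 TPM in summer and 129 TPM in winter (-0.21, adjusted p = 0.583, limma). The theca gene CYP17A1 was too low to be tested. The lower calls were thus of collagen and other stroma genes. The 7 general leukocyte markers summed to between 5.38 and 25.4 TPM in summer and between 4.14 and 66.4 TPM in winter, and the 8 B cell markers to at most 3.74 TPM in summer and 4.47 TPM in winter, with PAX5 listed at 0 in every library. The 10 myeloid markers summed to between 54.1 and 79.2 TPM in summer and between 24.7 and 87.9 TPM in winter, most of it from CSF1R, the receptor of a macrophage growth factor, which averaged 51.4 ± 3.49 TPM over summer libraries and 29.4 ± 11.3 TPM over winter libraries (SD, n = 4 each, with a difference of 0.86, adjusted p = 0.0265, limma) and was not called. The macrophage marker CD68 went the other way and was called lower (-1.84, adjusted p = 0.0266, limma). In pooled oocytes, fewer cells of a type and less RNA per cell cannot be told apart, and the part of these markers in the differences below was not tested.

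The family was represented mainly by receptors. Receptor transcripts summed to 221, 158, 121 and 119 TPM in summer libraries A, B, C and E, and to 580.4, 272, 274 and 271 TPM in winter libraries A, B, D and E. All 4 winter sums lay above the 4 summer sums. Ligand transcripts summed to between 51.9 and 71.5 TPM in summer and between 37.0 and 92.6 TPM in winter, and these ranges overlapped. Without TNFSF12 the other 16 ligands summed to between 10.4 and 19.1 TPM in summer and between 18.1 and 49.9 TPM in winter, where winter E alone reached into the summer range. Among receptors, 9 of 20 were above 0 in all 8 libraries and 6 reached a mean of 10 TPM in a season. Among ligands, 3 of 17 were above 0 throughout and 2 reached that mean. TNFSF12 alone gave from 68.6% to 79.9% of ligand TPM in summer and from 40.0% to 51.1% in winter.

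**Figure D1:**
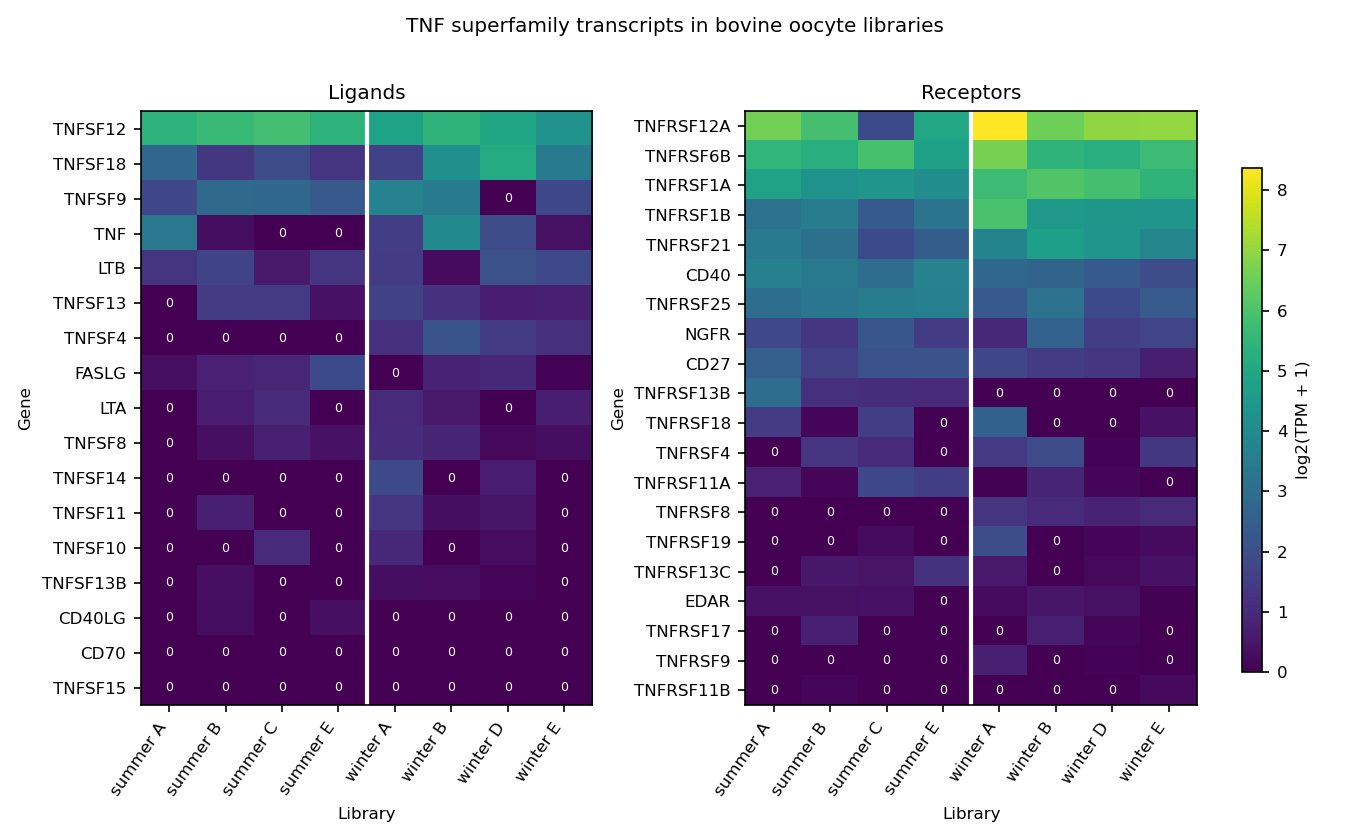
Level of every member, as log2(TPM + 1), in each library (columns, summer left of the white line and winter right), with 17 ligands in the left panel and 20 receptors in the right panel, ordered by mean level. A 0 marks a gene listed at 0: TNFSF4, TNFSF14, TNFRSF8 and TNFRSF9 were at 0 in all summer libraries, TNFRSF13B and CD40LG in all winter libraries, and CD70 and TNFSF15 in both seasons.

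Some members were listed at 0 throughout a season. The ligands CD70, which engages CD27 on lymphocytes, and TNFSF15, the ligand of TNFRSF25, were at 0 in all 8 libraries. At 0 in all summer libraries but not in all winter libraries were the ligands TNFSF4 (OX40 ligand, a T cell costimulator) and TNFSF14 (LIGHT), and the receptors TNFRSF8 (CD30) and TNFRSF9 (4-1BB). At 0 in all winter libraries but not in all summer libraries were the ligand CD40LG, the T cell signal to CD40, and the receptor TNFRSF13B (TACI), which binds the B cell survival factors TNFSF13 and TNFSF13B. TNFSF14 and TNFRSF9 were above 0 in 2 of 4 winter libraries, and CD40LG in 2 of 4 summer libraries (0.229 TPM in summer B and 0.281 TPM in summer E).

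The filter on expression admitted 16 members, 5 ligands and 11 receptors. Of these, 11 were expressed in both seasons. TNFSF4, TNFSF13 and TNFRSF8 passed through winter alone and TNFSF9 and TNFRSF13B through summer alone, so for these 5 the filter itself used the season in which all 4 libraries were above the limit. Among the 11 receptors tested, 4 were called lower in summer (TNFRSF1A, TNFRSF1B, TNFRSF21 and TNFRSF8) and 1 was called higher (TNFRSF13B), where 5.17% of all genes tested were called lower and 4.40% higher. Among the 5 ligands tested, TNFSF4 was called lower and none was called higher (limma, with 1, TNFSF12, higher at an unadjusted p under 0.05). No overlap between the 4 summer and the 4 winter values was seen in 6 of the 11 receptors and 1 of the 5 ligands, against 29.5% of all genes tested. With the library letter as a block, which leaves the 3 letters present in both seasons to set the difference, TNFRSF1A was still called (-1.34, adjusted p = 0.0391, limma) and TNFRSF12A was called as well. The other 5 called members were not: the adjusted p with the block was 0.0525 for TNFRSF1B, 0.0928 for TNFRSF21, 0.140 for TNFRSF8, 0.0810 for TNFRSF13B and 0.0836 for TNFSF4 (limma).

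**Figure D2:**
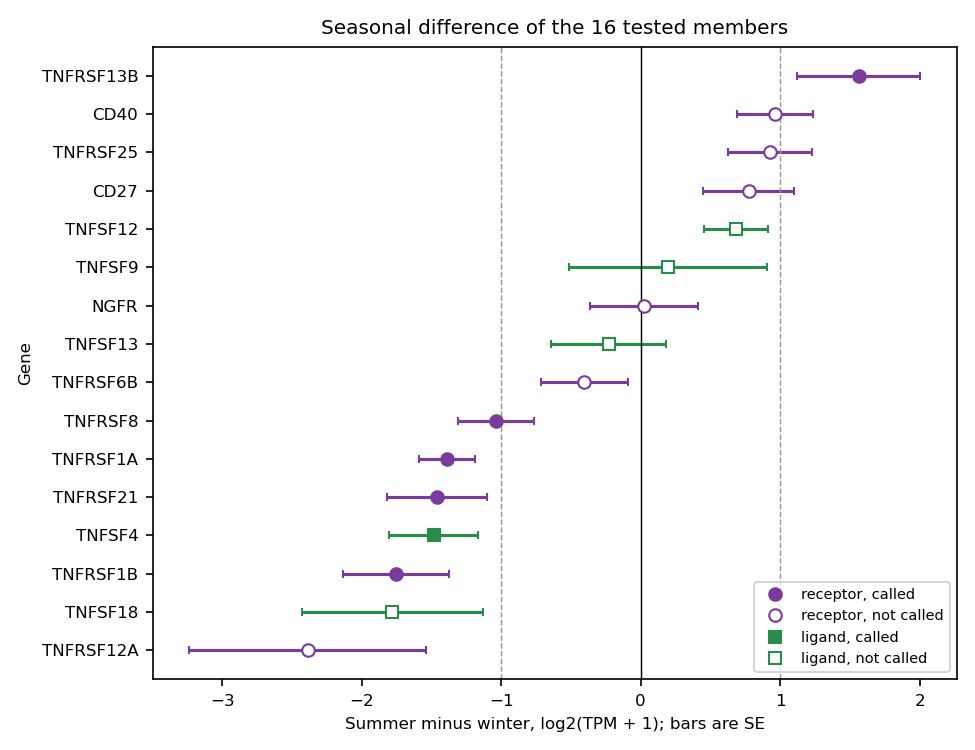
Difference between summer and winter for the 16 tested members (horizontal axis, summer minus winter in log2(TPM + 1), with bars of 1 SE from limma), circles for receptors and squares for ligands, filled where called. TNFRSF12A has the lowest estimate (-2.39) but the widest bar and is not called, while TNFRSF1A (-1.39) is called with the narrowest bar of the 16.

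The receptors of TNF itself were lower in the summer libraries. TNFRSF1A, the death domain receptor that responds to soluble TNF and to lymphotoxin, stood at 27.4, 18.8, 19.5 and 16.3 TPM in summer A, B, C and E, against 52.3, 67.2, 58.3 and 42.6 TPM in winter A, B, D and E. Every summer value was below every winter value. The means were 20.5 ± 4.79 TPM in summer and 55.1 ± 10.3 TPM in winter (SD, n = 4 each), and the difference was -1.39 (SE 0.20, adjusted p = 0.00379, limma). Its call held in all 18 alternatives in which it was tested, and the estimate lay between -1.55 and -1.29.

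TNFRSF1B, the second TNF receptor, which lacks a death domain and is favoured by membrane-bound TNF, followed the same direction. It stood at 7.78, 10.6, 4.13 and 8.38 TPM in summer A, B, C and E, against 61.3, 21.9, 20.4 and 19.8 TPM in winter A, B, D and E. Winter A stood far above the rest, yet the seasons did not overlap with or without it. The difference was -1.75 (SE 0.38, adjusted p = 0.0105, limma), and -1.37 without winter A (adjusted p = 0.0131, limma).

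TNFRSF21, a death domain receptor also called death receptor 6, was lower in summer as well. It stood at 9.73, 7.44, 2.70 and 4.55 TPM in summer A, B, C and E, against 12.7, 25.3, 20.3 and 12.9 TPM in winter A, B, D and E, with no overlap. The difference was -1.46 (SE 0.36, adjusted p = 0.0163, limma), and leaving out any 1 library kept it called (adjusted p up to 0.0495, limma), while the letter block did not (-1.11, adjusted p = 0.0928, limma). TNFRSF1A, TNFRSF1B and TNFRSF21 were all expressed in both seasons, and they moved in the direction of the theca and stroma markers called lower. TNFRSF1A overlaps an unnamed gene in the RefSeq annotation of ARS-UCD2.0, and TNFRSF1B overlaps TNFRSF8. The sources read here do not say whether reads were assigned by strand, so reads of overlapping genes may not be separate.

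**Figure D3:**
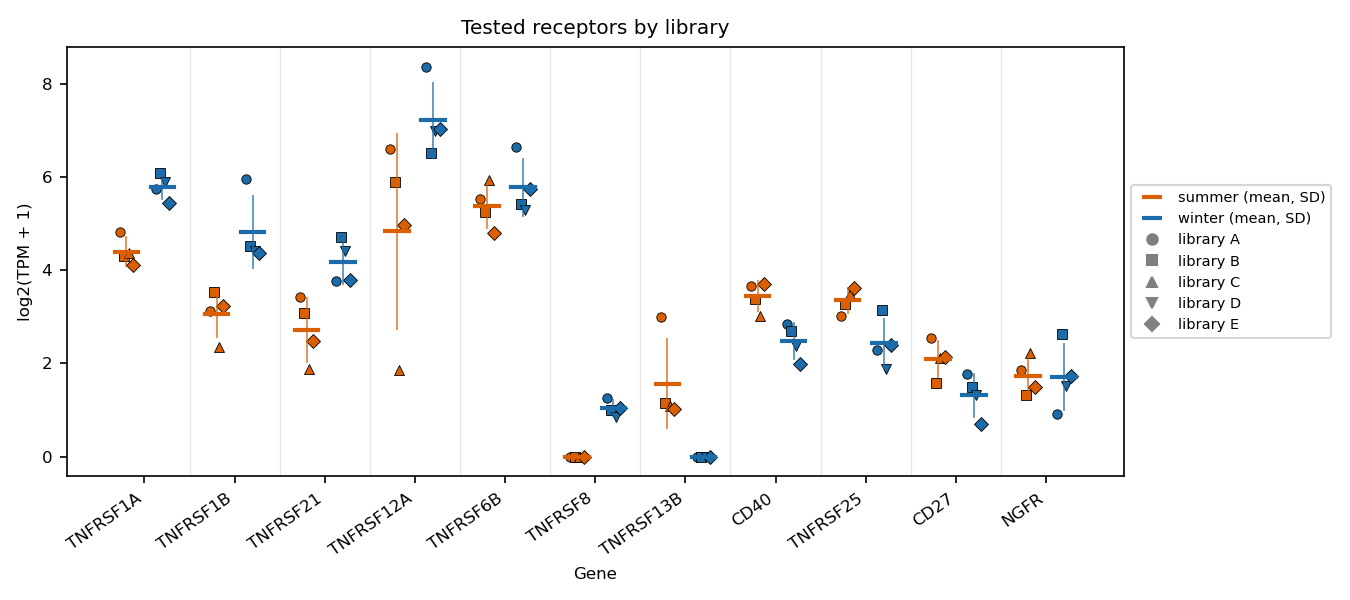
Level of the 11 tested receptors, as log2(TPM + 1), by library (symbols by library letter), with the mean and SD of each season (horizontal and vertical lines, summer left of winter for each gene, n = 4 each). The summer values of TNFRSF1A, TNFRSF1B and TNFRSF21 all lie below the winter values, those of CD40 all lie above, and summer C stands far below the other libraries for TNFRSF12A (2.65 TPM).

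TNFRSF12A and TNFRSF6B were the most abundant receptors and neither was called. TNFRSF12A encodes Fn14, a small receptor that signals through TRAF adaptors and is induced in injured and proliferating tissue. It stood at 95.8, 58.1, 2.65 and 30.3 TPM in summer A, B, C and E, against 329.6, 89.9, 125 and 129 TPM in winter A, B, D and E. Summer A lay above winter B, and the summer libraries spanned a wide range down to summer C. The difference of -2.39 (SE 0.85) missed the threshold (adjusted p = 0.0589, limma). Without summer A it was -2.98 and passed (adjusted p = 0.0306, limma), and without summer C it was -1.40 (adjusted p = 0.0622, limma). The gene overlaps CLDN6, which was at most 0.263 TPM in summer and 2.52 TPM in winter.

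TNFRSF6B encodes decoy receptor 3, a secreted protein that binds FASLG, TNFSF14 and TNFSF15 in human. It stood at 44.8, 37.2, 59.9 and 26.6 TPM in summer A, B, C and E, against 98.7, 42.1, 38.3 and 52.6 TPM in winter A, B, D and E. The seasons overlapped and differed by -0.40 (SE 0.31, adjusted p = 0.348, limma), less than the spread between libraries. By its mean TNFRSF6B ranked above 65.5% of tested genes in summer and 74.6% in winter. Of its ligands, TNFSF14 and TNFSF15 were at 0 in every summer library and FASLG reached 2.68 TPM at most.

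CD40 and TNFRSF25 lay higher in summer by an adjusted p under 0.05 but missed the 2-fold limit. CD40, the receptor of B cells and antigen-presenting cells that recruits TRAF adaptors, stood at 11.6, 9.42, 7.04 and 12.1 TPM in summer A, B, C and E, against 6.18, 5.50, 4.18 and 2.97 TPM in winter A, B, D and E. All summer values were above all winter values. The difference of 0.96 (SE 0.27, adjusted p = 0.0270, limma) fell just short of the 2-fold limit, and with a pseudocount of 0.5 it was 1.03 and called (adjusted p = 0.0282, limma).

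TNFRSF25, death receptor 3, which binds TNFSF15, was nearly as far apart. It stood at 7.13, 8.69, 10.3 and 11.4 TPM in summer A, B, C and E, against 3.89, 7.90, 2.67 and 4.27 TPM in winter A, B, D and E. Winter B alone reached into the summer range. The difference was 0.93 (SE 0.30, adjusted p = 0.0430, limma), and without winter B it was 1.17 and called (adjusted p = 0.0137, limma). CD27, the CD70 receptor of T and B cells, stood at 4.80, 2.001, 3.33 and 3.38 TPM in summer A, B, C and E, against 2.42, 1.80, 1.49 and 0.615 TPM in winter A, B, D and E, and was not called (0.77, SE 0.33, adjusted p = 0.0989, limma). The differences of CD40, TNFRSF25 and CD27 had the sign of the oocyte markers and were smaller than the median difference of those markers, 1.15. Over the same libraries the 10 T and NK cell markers summed to between 14.9 and 21.2 TPM in summer and between 4.93 and 17.8 TPM in winter.

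TNFRSF13B was the 1 member called higher in summer. It stood at 6.94, 1.22, 1.12 and 1.04 TPM in summer A, B, C and E and was listed at 0 in all 4 winter libraries. Summer A stood far above the other summer libraries, which lay close together. The difference was 1.56 (SE 0.44, adjusted p = 0.0267, limma) and 1.09 without summer A, where it was still called. The call was lost without winter D (adjusted p = 0.0618, limma) or without winter E (adjusted p = 0.0571, limma), although both are at 0 and the estimate stayed at 1.56. The other receptors of the same ligands, TNFRSF13C and TNFRSF17, were not tested and reached at most 1.36 TPM in summer E and 0.671 TPM in summer B. B cell markers did not separate the seasons, with sums of 1.11, 3.71, 0.117 and 3.74 TPM in summer A, B, C and E, against 0.654, 4.47, 2.15 and 1.09 TPM in winter A, B, D and E.

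TNFRSF8, the CD30 receptor of activated lymphocytes, was the reverse case. It was listed at 0 in all 4 summer libraries, against 1.39, 1.01, 0.792 and 1.06 TPM in winter A, B, D and E. The difference was -1.04 (SE 0.27, adjusted p = 0.0214, limma), just past the 2-fold limit. The call was lost without summer B (adjusted p = 0.0529, limma), and without winter A the difference was -0.96. TNFRSF8 is the gene that overlaps TNFRSF1B, which was also lower in summer, and reads of this pair may not be separate. Its ligand TNFSF8 was at 0 in summer A and at most 0.675 TPM in the other summer libraries (summer C), against at most 1.07 TPM in winter (winter A).

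NGFR, the p75 neurotrophin receptor, showed no seasonal difference beyond its spread. It stood at 2.63, 1.49, 3.71 and 1.82 TPM in summer A, B, C and E, against 0.898, 5.19, 1.88 and 2.33 TPM in winter A, B, D and E (0.02, SE 0.39, adjusted p = 0.969, limma). The remaining 9 receptors were too low to be tested. TNFRSF11A (RANK, the receptor of the osteoclast factor TNFSF11) stood at 0.714, 0.109, 2.48 and 1.96 TPM in summer A, B, C and E, against 0.0402, 0.803, 0.0822 and 0 TPM in winter A, B, D and E. TNFRSF18 (GITR) stood at 1.83, 0.103, 1.91 and 0 TPM in summer A, B, C and E, against 5.03, 0, 0 and 0.313 TPM in winter A, B, D and E. TNFRSF4 (OX40) stood at 0, 1.38, 0.977 and 0 TPM in summer A, B, C and E, against 1.64, 2.81, 0.0600 and 1.56 TPM in winter A, B, D and E. In each of these the seasons overlapped. TNFRSF9, the secreted decoy TNFRSF11B (osteoprotegerin), TNFRSF19, the ectodysplasin receptor EDAR, TNFRSF13C (the receptor of BAFF) and TNFRSF17 (BCMA) had means under 1 TPM in both seasons, and their highest single value was 2.90 TPM, of TNFRSF19 in winter A.

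Among ligands, TNFSF12 was the only one abundant in every library. TNFSF12 encodes TWEAK, the ligand of Fn14. It stood at 41.7, 48.3, 57.0 and 41.5 TPM in summer A, B, C and E, against 27.9, 42.7, 30.0 and 18.9 TPM in winter A, B, D and E. Winter B lay inside the summer range and the other winter libraries below it. The means were 47.1 ± 7.31 TPM in summer and 29.9 ± 9.80 TPM in winter (SD, n = 4 each), a difference of 0.69 (SE 0.23, adjusted p = 0.0488, limma) that was under the 2-fold limit. The adjusted p exceeded 0.05 without any library except winter B (up to 0.125, limma). TNFSF12 and TNFSF13 overlap the same unnamed RefSeq gene, so their reads may not all be their own.

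TNFSF12 had a higher mean in summer and its receptor TNFRSF12A a lower one. Receptor TPM divided by ligand TPM was 2.30, 1.20, 0.0464 and 0.731 in summer A, B, C and E, against 11.8, 2.11, 4.16 and 6.82 in winter A, B, D and E. Only winter B, at 2.11, reached into the summer range. Of 26 pairs of a ligand and a receptor known to bind it (FAS and LTBR included as partners), TNFSF12 with TNFRSF12A was the only pair in which both partners had at least 1 TPM in all 4 libraries of a season, and it did so in both seasons. In 18 pairs no summer library, and in 15 pairs no winter library, held both partners at that level.

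**Figure D4:**
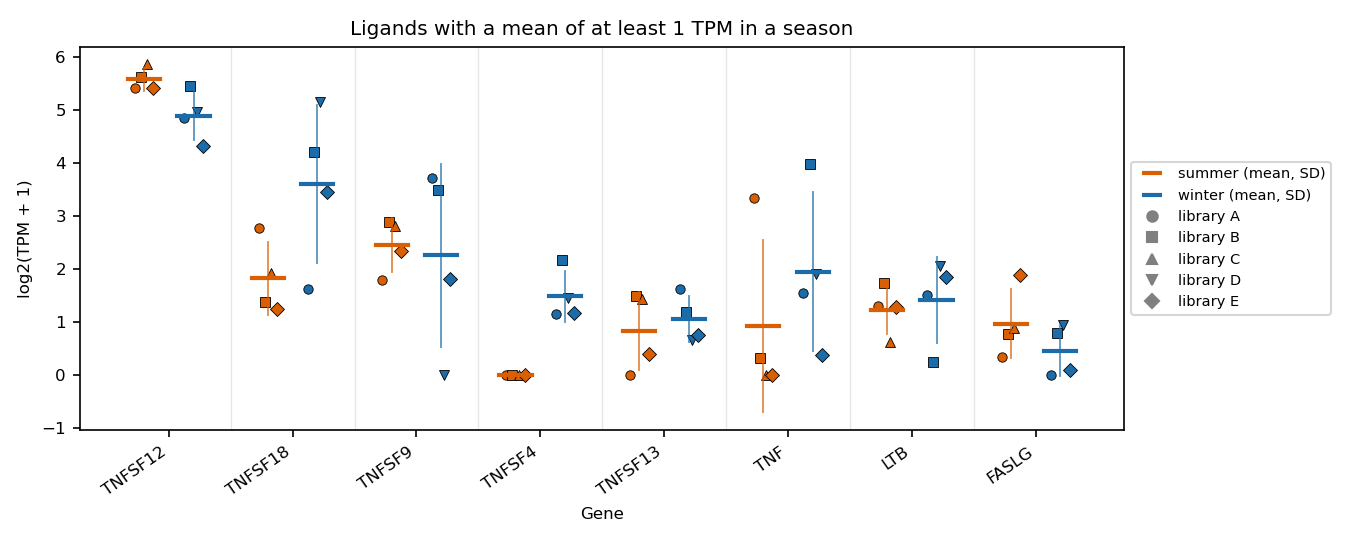
Level of the 8 ligands with a mean of at least 1 TPM in a season, as log2(TPM + 1), by library (symbols by library letter), with the mean and SD of each season (horizontal and vertical lines, summer left of winter for each gene, n = 4 each). TNFSF12 is the highest ligand in 7 of 8 libraries, TNFSF4 is at 0 in all summer libraries, and TNF is high in summer A (9.12 TPM) and winter B (14.7 TPM) alone.

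TNFSF18 and TNFSF4, T cell costimulatory ligands, both had lower means in summer. TNFSF18 (the GITR ligand) stood at 5.80, 1.59, 2.77 and 1.38 TPM in summer A, B, C and E, against 2.09, 17.5, 34.4 and 9.88 TPM in winter A, B, D and E. In winter D it exceeded TNFSF12, whereas winter A lay inside the summer range. The difference was -1.78 (SE 0.65) and was not called (adjusted p = 0.0648, limma), while without winter A it was -2.44 (adjusted p = 0.0106, limma). TNFSF4 was listed at 0 in all 4 summer libraries, against 1.21, 3.51, 1.74 and 1.24 TPM in winter A, B, D and E. It was called lower in summer (-1.48, SE 0.32, adjusted p = 0.0100, limma) and no single library was needed for the call (adjusted p up to 0.0296, limma), which was lost with the letter block (-1.49, adjusted p = 0.0836, limma). TNFSF18 and TNFSF4 each overlap an unnamed RefSeq gene. Like TNFSF4, the theca and stroma markers were highest in winter B (2436 TPM) and, among winter libraries, lowest in winter A (441 TPM). Of the receptors called lower, TNFRSF21 had the same extremes (25.3 TPM in winter B and 12.7 TPM in winter A). TNFRSF1A was highest in winter B (67.2 TPM) but lowest in winter E (42.6 TPM). TNFRSF1B (61.3 TPM) and TNFRSF8 (1.39 TPM) were highest in winter A. The part of these markers was not tested.

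TNFSF9 and TNFSF13 did not differ beyond their spread. TNFSF9, the 4-1BB ligand, stood at 2.45, 6.39, 5.96 and 4.04 TPM in summer A, B, C and E, against 12.2, 10.3, 0 and 2.49 TPM in winter A, B, D and E. Its mean was lower in summer, yet its log2 difference was 0.20 (SE 0.71, adjusted p = 0.851, limma) because winter D was at 0, and without winter D it was -0.55. TNFSF13 (APRIL), a B cell factor, stood at 0, 1.80, 1.68 and 0.316 TPM in summer A, B, C and E, against 2.07, 1.28, 0.584 and 0.683 TPM in winter A, B, D and E (-0.23, SE 0.41, adjusted p = 0.697, limma).

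TNF was detected unevenly and could not be tested, since it met the expression limit in neither season. It stood at 9.12, 0.254, 0 and 0 TPM in summer A, B, C and E, against 1.90, 14.7, 2.73 and 0.288 TPM in winter A, B, D and E. The highest library of each season stood far above the others, and the gene overlaps an unnamed RefSeq gene. These were also the libraries of their season with the highest sum of general leukocyte markers, at 25.4 TPM in summer A and 66.4 TPM in winter B, whereas the other 3 summer libraries held at most 8.01 TPM and the other 3 winter libraries at most 16.9 TPM. The pan-leukocyte gene PTPRC itself was listed at 0.0906 TPM in summer A, against 1.05 TPM in winter B. LAPTM5 alone gave 36.5 TPM of the sum in winter B. Myeloid markers were also highest in these libraries (79.2 TPM in summer A, 87.9 TPM in winter B). T and NK cell markers were not, at 14.9 TPM in summer A against 21.2 TPM in summer E, and 14.5 TPM in winter B against 17.8 TPM in winter A. The part of these markers in the TNF values was not tested. The lymphotoxin gene LTB stood at 1.46, 2.30, 0.536 and 1.41 TPM in summer A, B, C and E, against 1.82, 0.182, 3.17 and 2.62 TPM in winter A, B, D and E. FASLG, the death ligand of cytotoxic lymphocytes, stood at 0.268, 0.701, 0.846 and 2.68 TPM in summer A, B, C and E, against 0, 0.733, 0.927 and 0.0589 TPM in winter A, B, D and E. Both overlapped between the seasons. LTA, TNFSF8, TNFSF10 (TRAIL), TNFSF11 (RANK ligand), TNFSF13B (BAFF), TNFSF14 and CD40LG had means under 1 TPM in both seasons and no value above 2.61 TPM (TNFSF14, winter A).

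The machinery downstream of the receptors was mostly present in both seasons. Of 79 genes on 7 lists, 78 were in the table and 70 were tested, of which 1 was called higher and 5 lower in summer, with a median difference of -0.13 (-0.03 over all genes tested), where 4.40% of all genes tested were called higher and 5.17% lower. With the adjusted p alone, 9 of 70 were higher and 9 lower, against 14.9% higher and 11.9% lower among all genes tested. With the letter block, LIF and VCAM1 were still called, and EDARADD (adjusted p = 0.0734), CASP8 (0.1298), CYLD (0.0575) and MMP9 (0.141) were not (limma). The block also called TNFAIP3 (-1.84, adjusted p = 0.0463, limma) and CXCL2 (-2.83, adjusted p = 0.0342, limma) lower, which the main fit did not. Of the superfamily relatives outside the symbol rule, the Fas receptor FAS lay between 10.8 and 14.4 TPM in summer and between 10.7 and 15.4 TPM in winter, and the lymphotoxin beta receptor LTBR between 51.7 and 68.0 TPM in summer and between 54.5 and 63.0 TPM in winter (both picked with their values in view). The orphan receptor RELT, the most abundant of the 5, averaged 107 ± 19.9 TPM over summer libraries and 56.9 ± 9.78 TPM over winter libraries (SD, n = 4 each, as for the means below, with a difference of 0.89, SE 0.17, adjusted p = 0.00731, limma), under the 2-fold limit. EDA2R was at 0 in every library. None of the 4 relatives tested was called (limma, 1 higher and 0 lower at an unadjusted p under 0.05).

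Among adaptors and death domain kinases 1 of 12 was called higher and 1 lower. EDARADD, the adaptor of the ectodysplasin receptor EDAR, stood at 30.7, 29.1, 31.9 and 33.1 TPM in summer A, B, C and E, against 10.6, 23.6, 6.82 and 9.18 TPM in winter A, B, D and E. The summer libraries lay within a narrow range above all winter libraries (1.39, SE 0.31, adjusted p = 0.0114, limma), while EDAR itself stayed at or under 0.405 TPM in every library. CASP8, the initiator caspase of death receptors, stood at 1.30, 1.32, 0.403 and 0.952 TPM in summer A, B, C and E, against 6.02, 4.63, 3.10 and 1.63 TPM in winter A, B, D and E. It was called lower (-1.22, SE 0.36, adjusted p = 0.0300, limma), and the call survived the removal of summer A or of winter E but of no other library (adjusted p up to 0.0786 without summer C, limma). FADD, the adaptor that recruits caspase-8 and the most abundant gene of the list, averaged 68.0 ± 21.9 TPM over summer libraries and 73.1 ± 9.49 TPM over winter libraries.

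TRAF and IAP genes had no calls in either direction (limma, 9 tested, with 4 higher and 0 lower at an unadjusted p under 0.05). TRAF7 was the most abundant, with 119 ± 4.93 TPM over summer libraries and 93.4 ± 8.22 TPM over winter libraries. TRAF2, the adaptor shared by most of these receptors, averaged 129 ± 24.7 TPM over summer libraries and 72.9 ± 11.8 TPM over winter libraries (0.81, SE 0.17, adjusted p = 0.00974, limma), and was picked with its value in view. Of 14 ubiquitin-editing and NF-kB inhibitor genes 1 was called, the deubiquitinase gene CYLD, a brake on NF-kB signaling. CYLD stood at 5.10, 4.66, 7.20 and 5.43 TPM in summer A, B, C and E, against 22.3, 12.2, 16.1 and 10.8 TPM in winter A, B, D and E, with no overlap (-1.27, SE 0.26, adjusted p = 0.00879, limma). TRAFD1 was the most abundant of that list, with 208 ± 21.3 TPM over summer libraries and 118 ± 30.4 TPM over winter libraries (0.84, adjusted p = 0.00966, limma).

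Kinases and NF-kB transcription factors had no calls (limma, 13 tested, with 2 higher and 2 lower at an unadjusted p under 0.05), and RELA, the main NF-kB subunit, averaged 92.4 ± 10.6 TPM over summer libraries and 93.9 ± 13.0 TPM over winter libraries. The 5 genes of shedding proteases and their partners had none either (limma, 0 at an unadjusted p under 0.05), and ADAM10 averaged 58.2 ± 5.97 TPM over summer libraries and 60.0 ± 4.25 TPM over winter libraries.

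Of the 7 pathway lists, genes known to be induced by TNF had the lowest median difference, -1.81 over 13 tested. Of these, 3 were called lower and 0 higher (limma), where 5.17% of all genes tested were called lower and 4.40% higher. At an unadjusted p under 0.05, 6 were lower and 0 higher (limma). The share of all genes tested at that level was not counted. Counts at an unadjusted p, here and above, therefore have no share to be read against. With the adjusted p alone the shares of all genes were already 14.9% higher and 11.9% lower. LIF, VCAM1, MMP9, CXCL2, CXCL8, CCL2 and TNFAIP6 of this list were not above 0 in every summer library. They passed the filter on expression through winter alone, so the filter itself favoured a low median and the 3 calls. Marker lists of other cells were mixed in sign. Medians were -2.99 for theca and stroma, -0.675 for cumulus and granulosa and -1.34 over the 3 general leukocyte markers tested. They were 0.422 over the 5 endothelial, 0.909 over the 3 T and NK cell and 0.504 over the 3 myeloid markers tested. Within these lists CLDN5 (endothelial, -3.25) and CD68 (myeloid, -1.84) were called lower, and CD3G (T and NK cell, 1.15) was called higher. Medians over so few genes do not show how these cell types differed. The part of these markers in the differences was not tested. LIF, a cytokine of the interleukin 6 family, stood at 0.349, 0.620, 0 and 0 TPM in summer A, B, C and E, against 27.7, 2.99, 6.73 and 5.80 TPM in winter A, B, D and E (-2.86, SE 0.53, adjusted p = 0.00662, limma). VCAM1, an adhesion molecule for leukocytes, was at 0 in summer A, C and E and at 0.571 TPM in summer B, against 6.48, 4.13, 11.1 and 2.01 TPM in winter A, B, D and E (-2.45, SE 0.42, adjusted p = 0.00552, limma). Neither gene overlapped between the seasons. MMP9, a matrix protease, stood at 2.63, 0.340, 0 and 0 TPM in summer A, B, C and E, against 1.94, 18.6, 14.2 and 1.95 TPM in winter A, B, D and E (-2.26, SE 0.69, adjusted p = 0.0350, limma), and lost its call when summer B, summer C, summer E, winter B or winter D was left out (adjusted p up to 0.0961, limma). IRF1 was the most abundant of the list, with 81.4 ± 36.4 TPM over summer libraries and 214 ± 131 TPM over winter libraries, and was not called (-1.23, adjusted p = 0.135, limma), while without winter B it was called at -1.82 (adjusted p = 0.0127, limma).

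**Figure D5:**
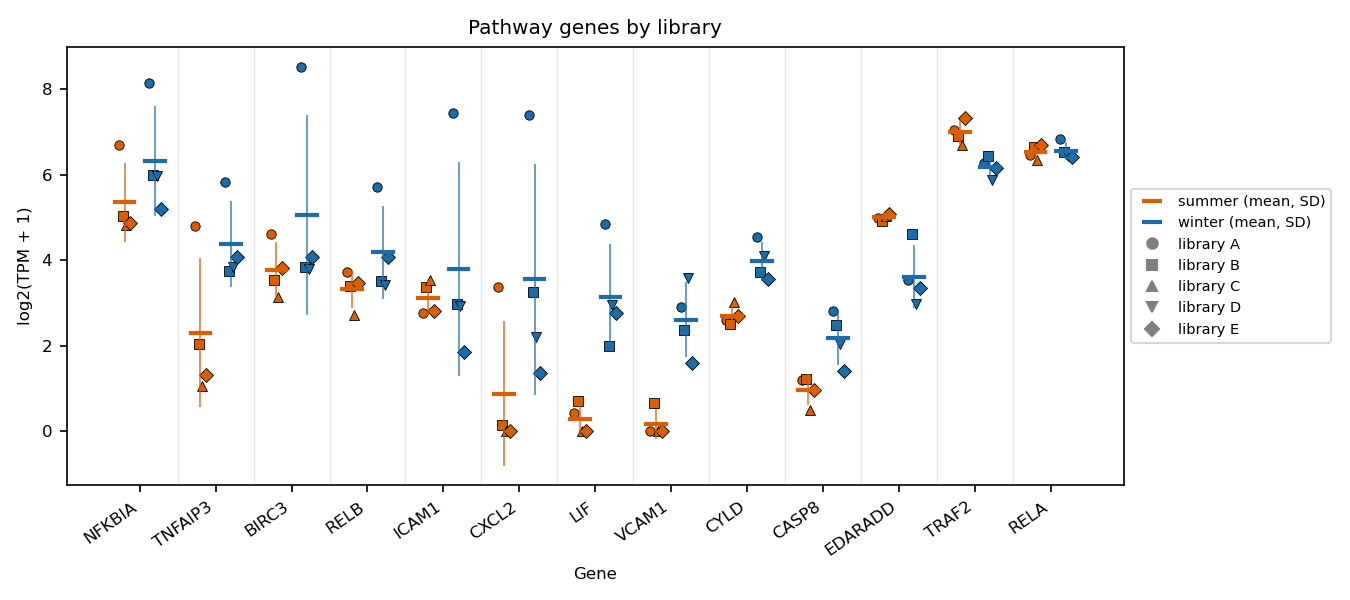
Level of 13 pathway genes, as log2(TPM + 1), by library (symbols by library letter), with the mean and SD of each season (horizontal and vertical lines, summer left of winter for each gene, n = 4 each). LIF, VCAM1, CYLD and CASP8 lie lower in summer and EDARADD higher, while NFKBIA, TNFAIP3, BIRC3, RELB, ICAM1 and CXCL2 are led by winter A (circles), with BIRC3 at 368 TPM there and at most 15.9 TPM in the other winter libraries.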

How the data were processed

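The deposited table held TPM per gene for 8 libraries of pooled oocyte RNA. The authors selected polyadenylated RNA, sequenced it, trimmed and mapped the reads and normalised them to TPM. CLC Genomics Workbench is the mapper of the methods. Bowtie2 2.2.2, bcl2fastq and DESeq2, with ARS-UCD1.2 as the build, appear in the submitters' processing notes, and which route made the table was not settled. TPM is not a count, so no count model was run and depth is unknown.

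Libraries were grouped by the season in their titles. zFPKM was computed per library, and genes above -3 in all 4 libraries of a season were tested over the whole table with limma 3.58.1 in R 4.3.3 (log2(TPM + 1), season as the only term, eBayes with a trend, Benjamini-Hochberg adjustment), which was also tested on simulated data. P-values measure the spread between pools. Calls needed an adjusted p below 0.05 together with a log2 difference of 1 or more in either direction. Values per library were given for members that were called, named by the study or had a mean of at least 1 TPM in a season. For the pathway lists, up to 4 called genes in each direction and the most abundant gene were named, and any other gene is marked as picked with its values in view. Members, lists, markers and tests were chosen with earlier results of these data known. Alternatives were other pseudocounts, filters, scalings, moderation, weights and thresholds, a block for the library letter, and the removal of each library in turn. Whether the letters pair libraries was not settled, so the fit without the block is the main one. CASP10 and OOSP1 of the lists were not analysed here. Leaving out both libraries of letter A was added after the data were seen.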

Additional observations from a re-analysis of the deposited data

Results flagged for a closer look

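Among 88 seasonal groups of 4 libraries (22 members and 22 pathway genes), 19 had a library standing far from the other 3 of its season by Dixon's criterion. For normally spread values chance gives about 1 in 20. NFKBIA, TNFAIP3, BIRC3, RELB, ICAM1 and CXCL2 were picked with their values in view, so the 19 cannot be set against that rate. Of the members, winter A was high for TNFRSF12A (329.6 TPM), TNFRSF1B (61.3 TPM) and TNFRSF18 (5.03 TPM), summer A for TNFRSF13B (6.94 TPM) and TNF (9.12 TPM), and winter B for TNF (14.7 TPM) and TNFRSF11A (0.803 TPM). Of the pathway genes, winter A was high for BIRC3 (368 TPM), NFKBIA (283 TPM), ICAM1 (174 TPM), CXCL2 (169 TPM), TNFAIP3 (56.3 TPM), RELB (52.0 TPM) and LIF (27.7 TPM). Summer A was high for NFKBIA (104 TPM), TNFAIP3 (26.9 TPM), CXCL2 (9.42 TPM) and MMP9 (2.63 TPM), and summer B for VCAM1 (0.571 TPM), the only summer library in which it was above 0.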

How the results depend on the processing

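The numbers of called members and pathway genes were small and moved with the settings, and depth limits them by an unknown amount because TPM keeps none. Ligands called lower numbered 1, and 2 with array weights or without both libraries of letter A (1 to 2 without any 1 library). Ligands called higher numbered 0, and 1 with the adjusted p alone. Receptors called higher numbered 1, but 3 with a pseudocount of 0.1, 3 with 0.5, 4 after quantile normalization, 2 with array weights, 3 with the adjusted p alone and 2 without both libraries of letter A (0 without winter D or winter E, up to 3 without winter B). Receptors called lower numbered 4 (3 to 5 without any 1 library). TNFRSF8 was the lower receptor lost after quantile normalization (-0.59) and with array weights (-0.98). Pathway genes called higher numbered 1, but 3 after quantile normalization, 2 with median ratio scaling, 2 with array weights, 9 with the adjusted p alone and 4 without both libraries of letter A (1 to 3 without any 1 library), and those called lower 5, but 10 with array weights, 9 with the adjusted p alone and 8 without both libraries of letter A (3 when summer B, C or E was removed, up to 8 without summer A).

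Among the members and pathway genes named, directions turned only in genes that were not called. TNFRSF8 and TNFSF13 were not tested under the filter of 1 TPM in every library of a season. TNFSF13 was at 0.15 after quantile normalization, 0.25 with array weights and 0.23 without both libraries of letter A (-0.45 to 0.046 without any 1 library, the highest without summer A). NGFR was at -0.0064 with median ratio scaling, -0.11 with array weights and -0.28 without both libraries of letter A (-0.24 to 0.33 without any 1 library). TNFSF9 ran from -0.55 to 0.69 without any 1 library. Of pathway genes near 0, FAS was at 0.078 after quantile normalization (-0.13 to 0.034 without any 1 library), LTBR at -0.044 after quantile normalization and -0.024 with median ratio scaling (-0.041 to 0.088), RELA at 0.057 with array weights and 0.094 without both libraries of letter A (-0.072 to 0.071), ADAM10 at 0.012 without both libraries of letter A (-0.096 to 0.023) and FADD between -0.34 and 0.043. ICAM1 was at 0.66 without both libraries of letter A (-1.33 to 0.54 without any 1 library).

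The methods tie winter replicates to summer ones without naming letters, and they state that a summer replicate and its winter counterpart were both left out, which does not match the retained letters (summer without D, winter without C). Deviations of same-letter libraries from their season means correlated at 0.049 for A, 0.138 for B and 0.201 for E, and each of these libraries correlated best with its own letter, a hint only, since the first of these is under 0.1. With the letter as a replicate block, 0 ligands were lower, 0 receptors higher and 2 lower (TNFRSF1A and TNFRSF12A), and 0 pathway genes higher and 4 lower, with NGFR at -0.21, TNFSF9 at -0.67, LTBR at -0.017 and RELA at 0.011. Over all genes tested, 589 were higher and 692 lower, against 179 and 296 with the block, 270 higher without winter E, 983 higher without winter B, 888 higher without both libraries of letter A, and 1995 and 1594 with the adjusted p alone.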

Other observations

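Both libraries of letter A stood apart from their season in more of the tested TNF pathway genes than other libraries did. In winter A, 10 of the 70 tested pathway genes (14.3%) were the highest of their season and apart from the other 3 libraries by Dixon's criterion, against 2.89% of all genes tested. These were TNFAIP3, NFKBIA, BIRC3, RELB, NFKB1, TRAF1, RIPK1, ICAM1, CXCL2 and LIF, a mixture of signaling genes, NF-kB inhibitors, chemokines and other targets (picked with their values in view, from lists chosen with earlier results known). In summer A, 8 of 70 (11.4%) were, against 1.61% of all genes tested, namely TNFAIP3, NFKBIA, CXCL2, CXCL8, CCL2, MMP9, TNFAIP6 and MAP3K14. The criterion takes no account of size, and MAP3K14 stood at 25.8 TPM in summer A against 23.5, 23.6 and 23.7 TPM in summer B, C and E. CXCL2, CXCL8, CCL2, MMP9 and TNFAIP6 were listed at 0 in some or all other summer libraries and passed the filter through winter alone. A single value stands apart easily in such genes. TNFAIP3 and NFKBIA encode inhibitors that restrain NF-kB. In the other 6 libraries at most 2 pathway genes were apart in this way, TNFAIP6 in winter D and DAXX and VCAM1 in summer B.

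The inhibitor gene NFKBIA stood at 104, 31.6, 27.5 and 28.1 TPM in summer A, B, C and E, against 283, 62.4, 61.5 and 35.7 TPM in winter A, B, D and E. The IAP gene BIRC3 stood at 23.5, 10.6, 7.84 and 13.1 TPM in summer A, B, C and E, against 368, 13.4, 13.0 and 15.9 TPM in winter A, B, D and E. TNF itself was not highest in winter A, where it stood at 1.90 TPM, and the TNF receptor gene TNFRSF1B was (61.3 TPM). The adhesion gene ICAM1 stood at 5.86, 9.45, 10.6 and 5.98 TPM in summer A, B, C and E, against 174, 6.88, 6.61 and 2.59 TPM in winter A, B, D and E, and its difference of -0.67 turned to 0.54 without winter A (neither was called, limma). The general leukocyte markers summed to 16.9 TPM in winter A and to 66.4 TPM in winter B, and the myeloid markers to 54.3 and 87.9 TPM. The T and NK cell markers went the other way and were the highest of winter in winter A, at 17.8 TPM against 14.5 TPM in winter B. The part of these markers in the winter A values was not tested. With both libraries of letter A removed, a setting added once the data had been seen, TNFAIP3, CXCL2, CXCL8 and CCL2 were called lower in summer beside CYLD, LIF, MMP9 and VCAM1, while CASP8 was not (limma). Summer A was the highest summer library for TNFAIP3, CXCL2, CXCL8 and CCL2 and apart from the others. Its removal was bound to lower their summer level, so their calls under this setting are no separate support.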
